A study of Eurytemora affinis with 18 samples.

Results

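Myosin genes of the estuarine copepod *Eurytemora affinis* were followed in 18 RNA-seq libraries, by sex and by dose of tebufenozide (TEB), an ecdysteroid agonist used against insect larvae. They are 6 of the 23728 genes in the count table. Of these, LOC111711689, LOC111711716 and LOC111715464 carry the name myosin heavy chain, muscle-like. The others are LOC111712575 (myosin-1-like), LOC111695443 (myosin-9-like) and LOC111708305 (myosin regulatory light chain 2-like). The names come from the study's gene lists, as the count table holds identifiers alone. The members were selected on measured values: all 6 were listed by the study for a change in males at 50 µg/L, and LOC111711689 and LOC111711716 also for a change in females at 50 µg/L. Values of those contrasts are therefore given as a description, with no test. The sexes at 0.5 µg/L, whose libraries had no part in the choice, were compared with a test, as was the exposure of females for members not chosen on it. Each sex at 0.5 µg/L was also tested against its controls, which are shared with the contrasts that chose members. The spread behind the tests at 0.5 µg/L came in part from libraries of the choice. Sex differences in controls and at 50 µg/L involve the male libraries of the choice and are given as a description.

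Each library was made from a pool of 30 whole adults of one sex, wild-caught in an estuary, kept in the laboratory and exposed for 72 h. There were 3 libraries in each of 6 groups, which were males and females as controls, at 0.5 µg/L TEB or at 50 µg/L TEB. The doses are nominal, TEB was dissolved in acetone, and the controls received the same solvent. Females carried no eggs when they were sampled. Whole animals were extracted, so fewer muscle cells and less myosin RNA per cell cannot be told apart. Total counts per library ran from 3882407 to 17114866, and replicates of a group differed by more than sampling noise, with a lowest chi-square per degree of freedom of 4.59. Reads of 75 bp from a High Output flow cell made up all controls, all male libraries at the low dose and female replicates 1 and 2 at that dose. Reads of 150 bp from a Mid Output flow cell made up female replicate 3 at 0.5 µg/L and every library exposed to 50 µg/L. Exposure to 50 µg/L and the flow cell cannot be told apart in males, and in females a single library separates them.

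Myosin is the motor protein of the thick filaments of muscle. A pair of heavy chains carries the heads, which bind actin and split ATP to produce force, and the rods, which pack into the filament. Light chains wrap the neck of each head, and phosphorylation of the regulatory light chain tunes contraction. Non-muscle myosins of the same family work in cell division, cell shape and cell movement in most tissues. In *Drosophila*, isoforms of the muscle heavy chain arise by splicing of a single gene, whereas several genes carry the muscle-like name in this copepod. Gene lengths and sequences were not used here, so levels are compared between libraries for each gene and not between genes. The sources used here do not state how reads matching more than one paralogue were counted, so reads may have been divided between the heavy chain genes.

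The heavy chain genes with the same name went in opposite directions in males at 50 µg/L, and the pair that was lower there was lower in females too. Levels below are CPM (counts scaled to library size) on a TMM scale shared by all libraries. LOC111711689 had 90.6, 112 and 56.1 CPM in male controls and 26.3, 22.5 and 21.8 CPM in males at 50 µg/L. Every exposed male library was below every control, with a log2 fold change of -1.87 (standard error 0.26). In females it had 22.7, 28.8 and 21.5 CPM in controls and 6.16, 3.48 and 5.10 CPM at 50 µg/L. Again the groups were apart, with a log2 fold change of -2.27 (0.43).

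**Figure D1:**
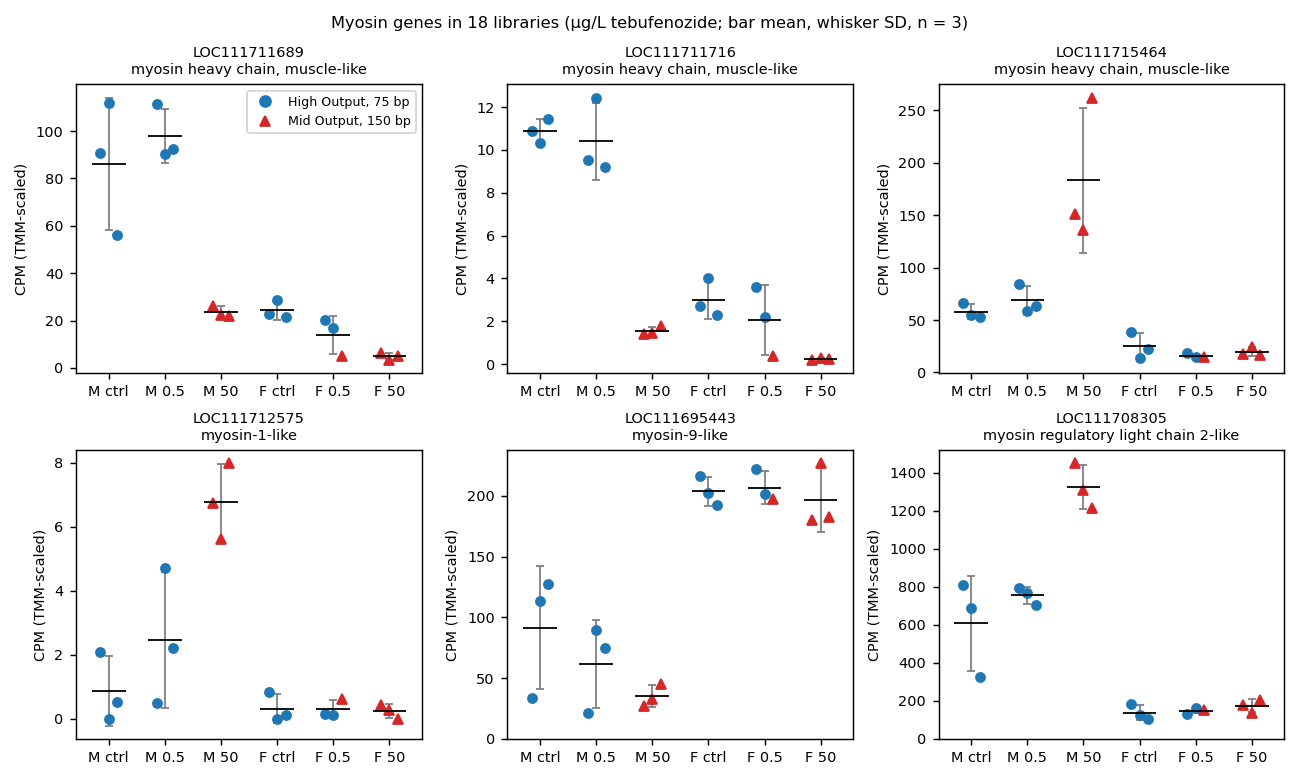
Level of each myosin gene (CPM, TMM-scaled, linear axis) in males (M) and females (F) as controls or at 0.5 or 50 µg/L TEB. Points are libraries, with circles for the High Output and triangles for the Mid Output flow cell, bars are group means and whiskers SD (n = 3). LOC111711689 and LOC111711716 are low in every triangle of their sex, while LOC111715464, LOC111712575 and LOC111708305 are highest in males at 50 µg/L.

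LOC111711716, the heavy chain gene with fewer counts, was also lower at 50 µg/L than in controls in both sexes. It had 10.9, 10.3 and 11.4 CPM in male controls against 1.40, 1.48 and 1.76 CPM in males at 50 µg/L, a log2 fold change of -2.79 (0.39). The exposed males held 24 counts in all and the controls 284, a ratio of library-scaled counts of 0.147 (exact 95% interval 0.0924 to 0.223, counting error only). Female controls had 2.72, 4.02 and 2.30 CPM and females at 50 µg/L 0.216, 0.282 and 0.232 CPM. Those exposed female libraries held 7 counts against 144, a ratio of 0.0829 (0.0327 to 0.175).

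The third muscle-like heavy chain gene, LOC111715464, was higher in exposed males. It had 66.0, 54.5 and 52.9 CPM in male controls and 151, 136 and 262 CPM at 50 µg/L, where replicate 3 stood above the rest. The log2 fold change was 1.66 (0.27), and it was 1.32 without that replicate. In females, for which this gene was not selected, controls had 38.7, 13.6 and 22.3 CPM and the libraries at 50 µg/L 17.8, 24.7 and 16.8 CPM. These groups overlapped, and the log2 fold change of -0.28 had a 95% interval of -0.88 to 0.31 (adjusted p = 0.728, quasi-likelihood test of edgeR). It turned to 0.18 without female control replicate 1, the highest control.

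LOC111712575 (myosin-1-like) rested on few counts. Male controls had 14, 0 and 5 counts, males at 0.5 µg/L 3, 36 and 18, and males at 50 µg/L 29, 19 and 59. In CPM, the exposed males at 50 µg/L had 6.75, 5.61 and 7.98, all above the controls at 2.09, 0 and 0.539. The summed counts of 107 against 19 gave a scaled ratio of 9.78 (5.96 to 16.9, counting error only), and the fitted log2 fold change was 3.02 (0.98). Leaving out male control replicate 1 moved it to 4.62, and leaving out replicate 2 to 2.34. Female libraries held between 0 and 16 counts, and the gene did not pass the filter on low counts in the fit of the females, where the other 5 members passed. All 6 passed in the fit of the males and in the fit of all libraries.

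The regulatory light chain gene LOC111708305 went the way of LOC111715464 in males. It had 811, 686 and 327 CPM in male controls and 1450, 1310 and 1217 CPM at 50 µg/L, a log2 fold change of 1.13 (0.29), the member nearest to the 2-fold limit of the study's list. Male control replicate 3 was the lowest control, and without it the log2 fold change was 0.81. In females the controls had 184, 125 and 105 CPM and the libraries at 50 µg/L 180, 137 and 205 CPM. The female groups overlapped, with a log2 fold change of 0.38 (95% interval -0.01 to 0.76, adjusted p = 0.463, edgeR), which leaves the gene outside that limit in females.

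LOC111695443 (myosin-9-like) bears the name of a vertebrate non-muscle heavy chain. Male controls had 33.6, 114 and 127 CPM and males at 50 µg/L 27.2, 33.1 and 45.3 CPM, so control replicate 1 lay within the exposed group. The log2 fold change was -1.37 (0.57). Female groups overlapped, with 217, 202 and 193 CPM in controls and 180, 227 and 183 CPM at 50 µg/L. The log2 fold change there was -0.01 (95% interval -0.21 to 0.19, adjusted p = 0.986, edgeR).

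Over all genes, the groups of males at 50 µg/L and male controls did not overlap for 26.7% of 17492 genes, and they did not overlap for 5 of the 6 members. With the call used here (adjusted p of at most 0.05 and at least 2-fold), 0.48% of genes were called higher and 0.252% lower. By edgeR LOC111715464 was past these limits as higher, and LOC111711689 and LOC111711716 as lower, while by DESeq2 all 6 members were past them. Since the members were selected on this contrast, nothing is read from these counts. The number called also rested on single libraries: it was 128 with all libraries, 4077 without male control replicate 1, and 0, 8, 2, 0 and 9 without male control replicate 2 or 3 or exposed replicate 1, 2 or 3. In females at 50 µg/L, 0% of 15555 genes were called higher and 0.00643% lower, and the groups did not overlap for 15.6%. None of the 3 members tested in that contrast was called, and their groups overlapped. LOC111711689 and LOC111711716, which are described only, were not past the limits by edgeR in females, while by DESeq2 both were. Over all genes 1943 had an unadjusted p under 0.05, and DESeq2 called 143. Whether the responses of the sexes differed was not tested, as the contrast in males had chosen the members.

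No member tested was called at 0.5 µg/L against male controls. Those males had 111, 90.4 and 92.3 CPM of LOC111711689, 9.53, 12.4 and 9.20 CPM of LOC111711716, and 84.5, 58.4 and 63.2 CPM of LOC111715464. LOC111708305 had 794, 768 and 705 CPM, and LOC111695443 20.8, 89.2 and 74.7 CPM, with replicate 1 low as in the controls. The log2 fold changes were 0.18, -0.08, 0.24, 0.31 and -0.58 in that order, with adjusted p from 0.942 to 0.982 (edgeR). Called genes made up 0% in either direction, and groups did not overlap for 8.56% of genes and for none of the members. Over all genes 693 had an unadjusted p under 0.05, and DESeq2 called 2. These contrasts share their controls with those that chose the members.

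In females at 0.5 µg/L the heavy chain pair was uneven among replicates. LOC111711689 had 20.4, 16.8 and 4.96 CPM and LOC111711716 had 3.61, 2.20 and 0.361 CPM, the last being replicate 3 on the Mid Output flow cell. LOC111715464 (18.4, 14.3 and 14.6 CPM), LOC111695443 (222, 201 and 197 CPM) and LOC111708305 (132, 161 and 152 CPM) varied less among replicates. The log2 fold change of LOC111711689 against controls was -0.76 (0.39, adjusted p = 0.9996, edgeR), and it was -0.37 without replicate 3. These female controls also served the contrast that chose LOC111711689 and LOC111711716, which limits what this value can show. Here too 0% of genes were called in either direction by edgeR, 468 had an unadjusted p under 0.05 and DESeq2 called 5. The groups did not overlap for 7.79% of genes, and for 1 of the 6 members, LOC111711689.

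The flow cell can be compared at a single dose only in these females. Replicate 3 held 0.266 times the mean of replicates 1 and 2 for LOC111711689 and 0.124 times for LOC111711716, the latter from 4 counts. A level at least 2-fold lower in replicate 3 was seen in 6.68% of 15555 genes. The same ratio was 0.892 for LOC111715464, 0.931 for LOC111695443 and 1.04 for LOC111708305. For LOC111712575 it was 4.28, from 3, 2 and 7 counts in replicates 1, 2 and 3. On the Mid Output flow cell alone, females had 4.96 CPM of LOC111711689 at 0.5 µg/L and 6.16, 3.48 and 5.10 CPM at 50 µg/L. For LOC111711716 the values were 0.361 CPM and 0.216, 0.282 and 0.232 CPM. A fit with a covariate for the flow cell rests on this library and takes the flow cell to act alike in both sexes. Its values in males are therefore no separate measure of the dose. It put LOC111711689 at -0.40 and LOC111711716 at -0.58 in females at 50 µg/L on the log2 scale, and at 0.03 and 0.18 in males. In males it put LOC111715464 at 1.83, LOC111708305 at 1.07 and LOC111695443 at -1.27. LOC111712575 was at 1.03 in males, against 3.03 in the fit of all 18 libraries without the covariate. The fit with the covariate called no gene in either sex.

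Ratios of counts within a library do not depend on its depth or scaling. The regulatory light chain gene had 4.34 to 9.56 counts for each count of LOC111711689 in the 11 libraries of the High Output flow cell. In the 7 libraries of the Mid Output flow cell it had 29.2 to 58.4. Females at 0.5 µg/L had ratios of 6.46 and 9.56 in replicates 1 and 2 and 30.7 in replicate 3. The ratio of LOC111715464 to LOC111711689 was parted in the same way. It was 0.728, 0.488 and 0.944 in male controls and 5.75, 6.07 and 12.0 in the males exposed to 50 µg/L. Females at the low dose had 0.903, 0.851 and 2.95. By contrast, LOC111708305 against LOC111715464 ran from 4.64 to 13.1 over all libraries with every group overlapping another.

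**Figure D2:**
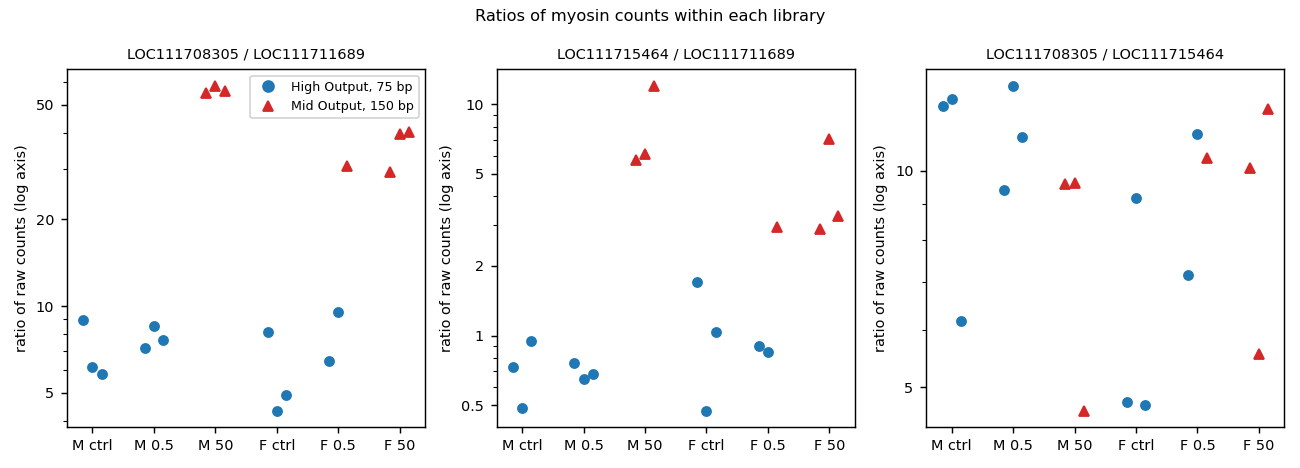
Ratio of the raw counts of myosin genes within each library (log axis), by sex and dose, with circles for the High Output and triangles for the Mid Output flow cell. Both ratios over LOC111711689 are higher in every triangle than in every circle, from 29.2 against at most 9.56 for the light chain gene, whereas the ratio of LOC111708305 to LOC111715464 overlaps.

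With the mean of each sex removed, LOC111711689 and LOC111711716 had a Pearson correlation of 0.95 over 18 libraries, which share flow cells and doses. It was 0.93 in the 9 male and 0.97 in the 9 female libraries. LOC111715464 had 0.63 with LOC111708305, from 0.78 in males and 0.10 in females. The choice of members on the male libraries bears on these values, which are a description. Outside the members, the gene most like both LOC111711689 and LOC111711716 was LOC111717198 (protein PXR1-like), at 0.95 with each. It had means of 47.1 CPM in male controls and 13.3 CPM in males at 50 µg/L, and 50.3 and 19.4 CPM in females. The gene most like LOC111715464 was LOC111699961 (carboxylesterase 5A-like), at 0.93. The genes most like LOC111708305 were LOC111708304, which the study's lists do not name, and LOC111695448 (actin-5C-like), both at 0.95. For LOC111712575 it was LOC111701559 (a phosphodiesterase-like gene) at 0.89, and for LOC111695443 LOC111702602 and LOC111694766 (TRIM71-like), both at 0.98.

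The sexes differed at 0.5 µg/L in the 5 members tested, and the libraries compared had no part in choosing them. The spread of each gene, however, came from all 18 libraries, including those of the choice. The p-values are therefore not fully independent of the choice. No call of these members changed when only the groups compared were fitted. LOC111711689, LOC111711716, LOC111715464 and LOC111708305 were lower in females, and LOC111695443 was higher. LOC111708305 was at 148 ± 15.1 CPM in females and 755 ± 45.7 CPM in males (SD, n = 3), a 5.10-fold difference (log2 -2.35, standard error 0.27, adjusted p = 7.22e-07, edgeR's quasi-likelihood test over 18110 genes). LOC111711689 was 6.92-fold lower in females (log2 -2.79, 0.37, adjusted p = 5.04e-06), and the female mean was 14.1 ± 8.08 CPM against 98.0 ± 11.6 CPM. LOC111711716 differed by -2.30 on the log2 scale (0.49, adjusted p = 0.000476) and LOC111715464 by -2.12 (0.32, adjusted p = 1.90e-05). Without replicate 3 of the females, the library on the other flow cell, LOC111711689 and LOC111711716 differed by -2.38 and -1.82, still called. Without replicate 1 of the females LOC111711716 differed by -2.95.

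LOC111695443 was at 207 ± 13.5 CPM in females at 0.5 µg/L and 61.6 ± 36.03 CPM in males, 3.35-fold higher in females (log2 1.74, 0.46, adjusted p = 0.00355). LOC111712575, which passed the filter on low counts through male libraries only, is described and not tested. Its 12 counts in the females and 57 in the males, of which replicate 2 held 36, gave a scaled ratio of 0.103 (0.0505 to 0.195, counting error only). Sex differences were common: 20.7% of all genes were called higher and 40.8% lower in females, the groups did not overlap for 81.9%, and the median over all genes was -0.54. Of the members tested, 1 was called higher and 4 lower, and none had overlapping groups. The median of all genes was -0.47 under the size factors of DESeq2 and -0.30 without scaling factors, and no member tested changed direction under the former.

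**Figure D3:**
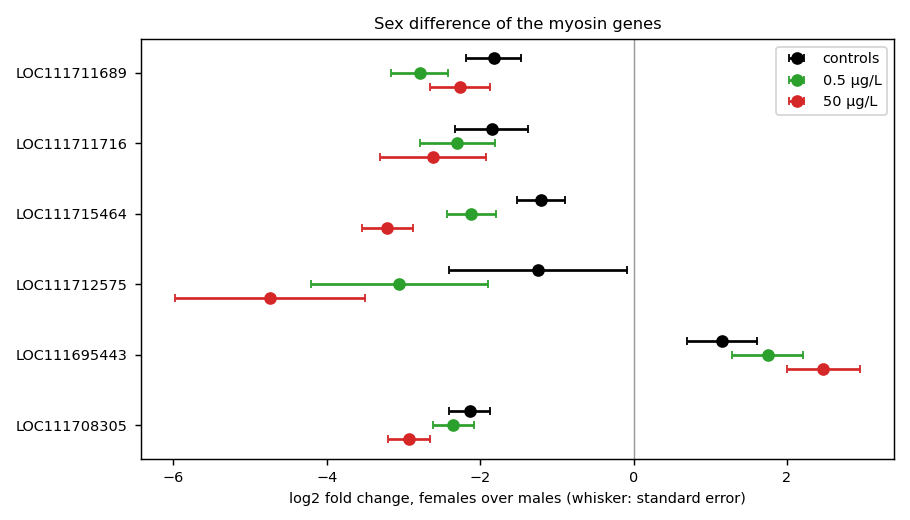
Log2 fold change of females over males for each myosin gene in controls, at 0.5 µg/L and at 50 µg/L TEB, with whiskers for the standard error. Values left of 0 are lower in females, and LOC111695443 lies right of 0 at every dose, from 1.15 in controls to 2.47 at 50 µg/L. Controls and 50 µg/L are a description.

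The same directions were seen between the sexes in controls. The log2 fold change of females over males was -2.14 (standard error 0.27) for LOC111708305, -1.85 (0.48) for LOC111711716, -1.82 (0.36) for LOC111711689 and -1.21 (0.31) for LOC111715464. It was 1.15 (0.45) for LOC111695443, and 0.76 without male control replicate 1. LOC111712575 had 18 counts in the females and 19 in the males, a scaled ratio of 0.509 (0.252 to 1.03, counting error only). These male libraries are the controls of the contrast that chose the members, so no test is given. Over all genes 11.6% were called higher and 34.5% lower in females, groups did not overlap for 68.2%, and the median was -0.28.

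At 50 µg/L both sexes were read on the Mid Output flow cell, and the directions were again the same. The log2 fold changes of females over males were -2.26 for LOC111711689, -2.62 for LOC111711716, -3.21 for LOC111715464, 2.47 for LOC111695443 and -2.93 for LOC111708305. LOC111712575 had 7 counts in the females and 107 in the males. Here 26.4% of genes were called higher and 43.2% lower in females, groups did not overlap for 83.3%, and the median was -0.68. These male libraries had chosen the members, so no test is given and nothing is read from these shares.

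Male libraries with clearly more of the genes high in females also had more LOC111695443, though not in strict order. A list of 51 genes at least 8-fold higher in females than in males at 0.5 µg/L held none of the 6 members. Their median level in male controls was 0, 39.7 and 32.6% of that in females at 0.5 µg/L. Each male library at 50 µg/L had 0%. Males at the low dose had 0.209, 8.07 and 8.003%, low values that the choice of the list fixes. Summed over the list, the male controls had 28.8, 1395 and 1205 CPM and the males at 50 µg/L 18.3 to 22.3 CPM. LOC111695443 was at 16.2, 54.9 and 61.5% of its female level in male controls, 10.1, 43.1 and 36.1% at the low dose and 13.2, 16.0 and 21.9% at 50 µg/L. Replicates 2 and 3 were above replicate 1 in male controls and in males at the low dose for the list and for this gene. By the median of the list, replicates 2 and 3 had the same order as for this gene at the low dose but not in controls. By the sum over the list their order differed from that of this gene in controls and at the low dose (329 and 352 CPM at the low dose). Among the libraries with the least of the listed genes the order differed. Of 3 marker genes of yolk and germline, the vitellogenin-like LOC111704362, for a yolk protein, is itself among the 51 genes. It had 1.34, 28.8 and 41.5 CPM in male controls and 0, 0 and 0.271 CPM in males at 50 µg/L. The vasa-like LOC111702462 (21.2, 119 and 136 CPM, against 11.6, 9.16 and 14.7 CPM) and the exuperantia-like LOC111705270 (13.1, 55.2 and 55.3 CPM, against 11.9, 4.43 and 12.4 CPM) were also lowest in control replicate 1 among the controls. Germline genes such as vasa work in both sexes.

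**Figure D4:**
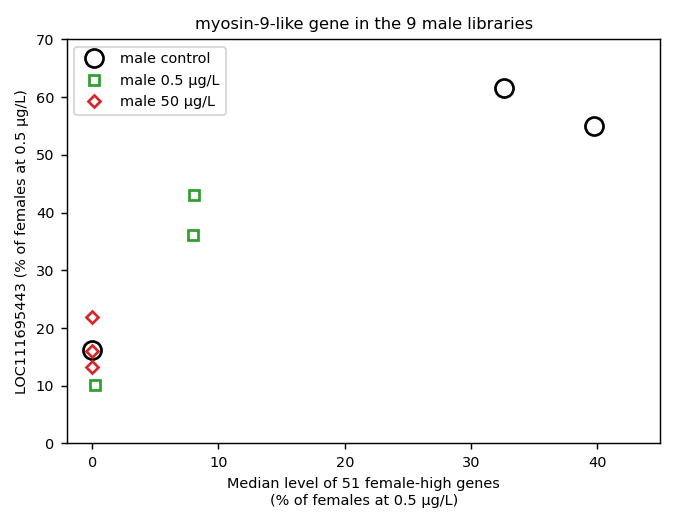
Level of LOC111695443 in each of the 9 male libraries against the median level of 51 genes high in females, both as % of the mean of females at 0.5 µg/L. Male control replicates 2 and 3 lie at the upper right (54.9 and 61.5%), and male control replicate 1 (16.2%) lies among the libraries at 50 µg/L.

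With male control replicate 1, the control with the least of these genes, as the sole male control, LOC111695443 differed by 0.03 at 50 µg/L on the log2 scale, as its level among the exposed libraries sets. Under the same setting LOC111711689 was at -1.99, LOC111711716 at -2.83, LOC111715464 at 1.43, LOC111712575 at 1.65 and LOC111708305 at 0.67. The lone control is taken to vary like the other groups in that fit. Whether RNA of females had a part in the male values was not tested.

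The other muscle genes of the study's list went the way of LOC111715464 and LOC111708305 rather than of LOC111711689. They are 2 actins, 2 titins, calpain clp-1-like and a myocyte-specific enhancer factor 2-like gene, a transcription factor of muscle differentiation in flies and vertebrates. The study chose them on these samples, so their direction in males at 50 µg/L is a description. All 6 were higher there, with log2 fold changes from 1.13 to 1.82 and a median of 1.47, beside 0.02 over all genes. In females at 50 µg/L they ran from -0.21 to 0.22 (median -0.07), and none was called by edgeR. At 0.5 µg/L against controls, 5 of 6 were higher in males, with a median of 0.52 beside -0.004 over all genes. In females 3 of 6 were higher, with a median of -0.002 beside 0.008. None was called by edgeR at that dose in either sex, and the male controls had served to choose these genes. Between the sexes at 0.5 µg/L, 5 of 6 were called lower in females (40.8% of all genes), with a median of -2.33 beside -0.54 over all genes. The exception was calpain clp-1-like LOC111697494 (-1.32, adjusted p = 0.064). Their medians of females over males were -1.83 in controls and -3.41 at 50 µg/L, beside -0.28 and -0.68 over all genes, a description since those male libraries had chosen them.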

How the data were processed

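RNA of pooled adults was sequenced as single-end reads. The authors trimmed reads with Trimmomatic (Phred score above 30, at least 36 bp), aligned them to Eaff_2.0 with STAR, counted them per gene with featureCounts and deposited raw counts, which were used here as deposited. Longer reads can change which paralogue a read is assigned to, and the flow cells differed in read length. Counts were analysed in R 4.3.3 with edgeR 4.0.16 (filterByExpr, TMM, robust quasi-likelihood test) in the 9 libraries of each sex for dose and in all 18 for sex. Sex contrasts in controls and at 50 µg/L were fitted as planned, but their members are given without a test. A call by edgeR required at least a 2-fold difference and an adjusted p (Benjamini-Hochberg, over all genes tested) of at most 0.05. DESeq2 1.42.0, other size factors, no filter, other sample sets, a flow cell covariate and each replicate left out were tried. The steps were tested on simulated counts. The study describes exposure vessels in triplicate, but the labels do not say which vessel or culture a replicate came from, so p-values measure the spread between these pools. Whether same-numbered pools of the sexes shared a vessel is not stated, and the sexes were compared without pairing.

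The members and lists were chosen with earlier results of these data known. Every member is described, with the 3 genes most correlated with each over libraries (the first 1 or 2 are named). Since gene descriptions were not used here, the other muscle genes are those of the study's list. A list at least 32-fold higher in females held 3 genes, so the 8-fold list was added after the data were seen. Both lists took genes of at least 10 CPM in females, with 0.1 CPM added to both means. Same-numbered male control and male 0.5 µg/L libraries deviated together (correlations 0.63, 0.29 and 0.39). Only 2 of the 3 low-dose libraries correlated best with the control of their own number, so the data do not settle a pairing. No call changed with replicate as a block there.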

Additional observations from a re-analysis of the deposited data

How the results depend on the processing

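Fold changes are on the log2 scale. In males at 50 µg/L, 128 genes were called (84 higher, 44 lower), against 1959 by DESeq2 (716 and 1243), 273 with no filter on low counts, 2112 with all 18 libraries in one fit (631 and 1481), 0 with the flow cell as a covariate, 27 with male control replicate 1 alone, and 0 to 4077 with a replicate left out. In females at 50 µg/L the count was 1, against 143, 3, 4 and 0 under the first 4 of these, and 0 to 72 with a replicate left out. With the replicate number as a block, the counts at 50 µg/L were 1668 in males (797 higher, 871 lower) and 0 in females, and no call of a tested member changed. In males at 50 µg/L, where members are described only, LOC111695443 and LOC111708305 came past the limits under the block. Same-numbered libraries did not all deviate together in these contrasts. At 0.5 µg/L, DESeq2 called 2 genes in males and 5 in females, and 0 to 3 were called in females with a replicate left out. The cause of these shifts was not tested.

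With the flow cell as a covariate, which rests on a single female library, the fold changes in males at 50 µg/L turned to 0.032 for LOC111711689 and 0.18 for LOC111711716. In females at 50 µg/L, LOC111695443 was 0.012 by DESeq2, 0.0082 with its size factors, 0.051 with the flow cell and -0.12 to 0.043 with a replicate left out, and LOC111715464 was -0.59 to 0.18. In males at 0.5 µg/L with male control replicate 1 alone, LOC111695443 was 0.81 and LOC111708305 -0.15. With a replicate left out, LOC111711689 ran from -0.055 to 0.36 and LOC111708305 from -0.0039 to 0.58 in males at 0.5 µg/L, LOC111708305 from -0.030 to 0.38 in females at 0.5 µg/L, and LOC111712575 from -3.38 to 0.36 between the sexes in controls. Between 3 and 5 members were past the limits between the sexes in controls with a replicate left out, a description. Of 211 tested member values under the alternatives, 199 kept their direction, 12 turned and 0 changed their call. Of 254 values given as a description, 250 kept their direction, 4 turned, and 39 crossed the limits of a call in one way or the other. Depth limits LOC111712575 and, at 50 µg/L, LOC111711716.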
